A study of Mus musculus with 12 samples.

Results

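Brown and beige fat burn fuel to make heat, and 10 genes known for that work were examined in mouse adipose tissue: Ucp1, Cidea, Dio2, Elovl3, Ppargc1a, Prdm16, Fabp3, Slc27a2, Tmem26 and Otop1. They were chosen by name, as the rows of the count table whose Ensembl identifier maps to these symbols, and are 10 of 53431 genes in the table. Messenger RNA had been sequenced from adipose tissue of mice of mixed C57BL/6 x 129/SvJ background, in 3 groups of 4 libraries each. The first group is labelled wild type (WT) and untreated. The second is labelled Bbs2-/- and untreated, and is called untreated here. The third is labelled Bbs2-/- and received Genz667161, an inhibitor of glucosylceramide synthase (GCS), mixed into the feed (0.033% by weight) between the ages of 2 and 6 months, and is called treated. The product of Bbs2 is part of the BBSome, a complex that carries membrane proteins along primary cilia. Tissue was taken at 6 months, per the labels' protocol. Fat depot and sex are not in the labels. Libraries of a group differed by more than counting noise (a chi-square of 18.3 to 88.2 for each degree of freedom). The labels do not say that each came from its own mouse, so this spread may be technical in other ways.

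Brown adipocytes and the beige adipocytes that appear within white fat are rich in mitochondria. Cold makes sympathetic nerves release noradrenaline, which acts through beta-adrenergic receptors and cyclic AMP to raise lipolysis and the transcription of thermogenic genes. Heat is then released where uncoupling protein 1 lets protons back across the inner mitochondrial membrane without making ATP. White fat holds little of this machinery unless it is stimulated.

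The libraries held 16317865 to 20224200 estimated counts. Levels are given as raw counts or as counts per 1e6 of the scaled library size (CPM). Genes were tested with edgeR in 1 fit of all 12 libraries, and a gene was called when its Benjamini-Hochberg adjusted p over the 15968 genes tested was under 0.05. The counts of Bbs2 were higher in libraries labelled Bbs2-/- than in those labelled WT, with a log2 fold change of 2.31 (edgeR adjusted p = 1.62e-06) for the untreated group. Gene counts do not tell whether a deleted part was among the bases read, so this leaves the labels unchecked, and all directions are given by label.

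The label of the set was checked against other markers. Mature adipocyte markers were abundant in every library, with a summed level over 15 genes of 29789.6 to 69960.7 CPM, and leptin (Lep), a white fat hormone, had at least 18876 counts in each. Brown and beige fat markers were mixed. Of 12 brown markers 8 and of 9 beige markers 6 had enough counts to be tested, among them Slc36a2, with at least 1438 counts in every library, and Klhl13, with at least 500. The others were low. Zic1, a transcription factor gene of classical brown fat, had 0 to 35 counts, with at most 2 in any library but WT 3. Lhx8, another brown fat marker, had 0 to 12 counts, Sgpp2 0 to 7, and Cyp2b10 101 in treated 1 and at most 26 elsewhere. The beige marker Tbx1 had 0 to 13 counts and Tnfrsf9 3 to 10. Cited1, a further beige marker, had 540 counts in WT 1 and at most 12 elsewhere.

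Levels of different genes can be set side by side only per length, for which the authors' log2 FPKM values were used. The lowest value is 0.0 in every library, and a count of 0 takes it, as when a constant is added before the logarithm. Values near 0 thus mean almost no RNA, and differences among low genes are compressed. In WT libraries Cidea stood highest, at 4.09 ± 0.40 (mean log2 FPKM ± SD, n = 4), followed by Otop1 at 2.03 ± 0.34 and Ucp1 at 1.25 ± 0.40. Ucp1, Prdm16, Slc27a2, Fabp3, Ppargc1a, Elovl3, Dio2 and Tmem26 followed in that order with each neighbour overlapping the next, down to 0.25 ± 0.37 for Tmem26. In untreated libraries Otop1 (3.0 ± 0.20) and Cidea (2.69 ± 0.42) overlapped at the top, and Ppargc1a (0.31 ± 0.10) had the lowest mean and overlapped Tmem26 (0.42 ± 0.05). In treated libraries Cidea (2.83 ± 0.29) had the highest mean and overlapped Otop1 (1.95 ± 0.81), while Slc27a2 reached 3.53 in treated 1, above every treated Cidea value, and Tmem26 (0.07 ± 0.04) and Ucp1 (0.06 ± 0.05) were lowest and overlapped.

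All 10 genes passed the filter on low counts, which asks for about 10 counts (0.536 CPM) in enough libraries. Only Cidea, Ppargc1a, Prdm16 and Otop1 reached that level in all 12 libraries. Dio2 and Slc27a2 reached it in 11, Elovl3 and Ucp1 in 7, Fabp3 in 6 and Tmem26 in 5. Elovl3, Fabp3 and Tmem26 passed with all 4 untreated libraries at that level and at most 2 of 4 in any other group, and Ucp1 passed with all 4 WT libraries, 3 untreated and no treated library. Since these 4 genes passed through the groups in which they were high, values over the set describe it and support nothing more. This holds for counts of calls, medians and counts of genes without overlap. It holds too for the tests of these 4 genes by themselves, whose p-values describe the libraries and are no independent support.

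**Figure D1:**
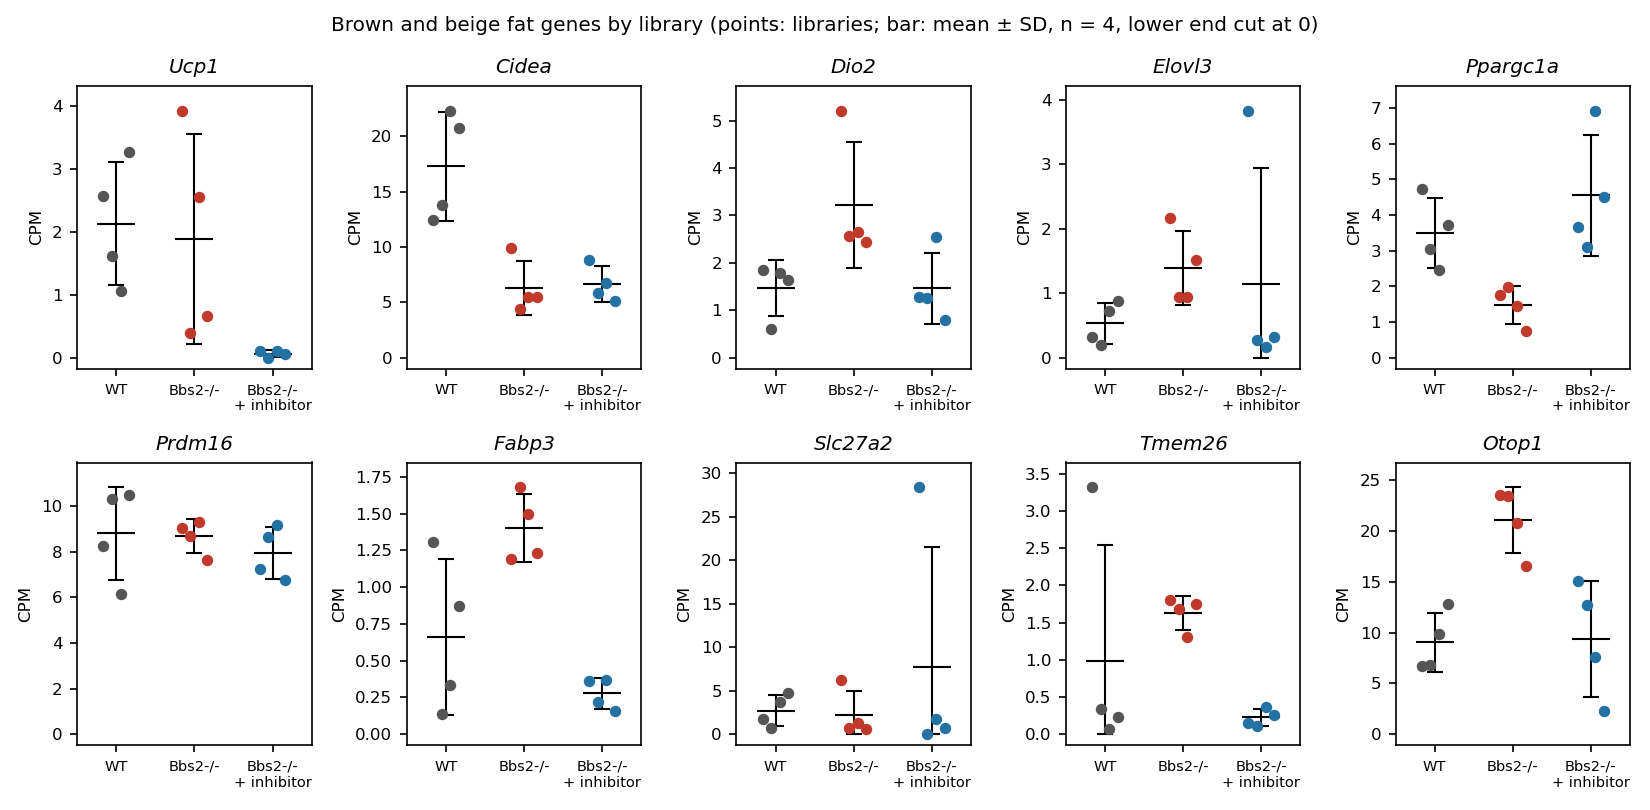
Each panel plots the level of 1 gene in CPM (vertical axis) in the 12 libraries (points) by group, with the mean and SD of 4 libraries and the lower end of the SD cut at 0. Ucp1 lies at or below 0.106 CPM in all 4 treated libraries, Cidea is at 12.4 CPM or more in WT alone, and single libraries stand apart for Slc27a2, Elovl3 and Tmem26.

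Of the 10 genes, 3 were called between untreated Bbs2-/- and WT libraries: Otop1 was higher, and Cidea and Ppargc1a were lower. Over all genes tested 39.2% were called in this comparison, so 3 of 10 is near the background. The median log2 fold change was 0.34 over the 10 genes and -0.02 over all genes tested. Between treated and untreated libraries 4 of the 10 were called: Ppargc1a was higher, and Ucp1, Fabp3 and Tmem26 were lower. Over all genes 37.2% were called there, again near the share in the set, and the median was -0.70 over the 10 genes and 0.03 over all genes. Between treated and WT libraries only Ucp1 was called, lower in treated libraries, beside 0.257% of all genes in either direction and 0.0814% in that direction. The 3 comparisons share groups of libraries, so their values are set side by side and not taken as independent.

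Groups did not overlap for 5 of the 10 genes between untreated and WT libraries (Cidea, Dio2, Elovl3, Ppargc1a and Otop1), beside 36.7% of all genes. Between treated and untreated libraries they did not overlap for 5 (Ucp1, Ppargc1a, Fabp3, Tmem26 and Otop1), beside 39.7% of all genes. For Ucp1 and Cidea they did not overlap between treated and WT libraries, beside 4.89% of all genes.

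**Figure D2:**
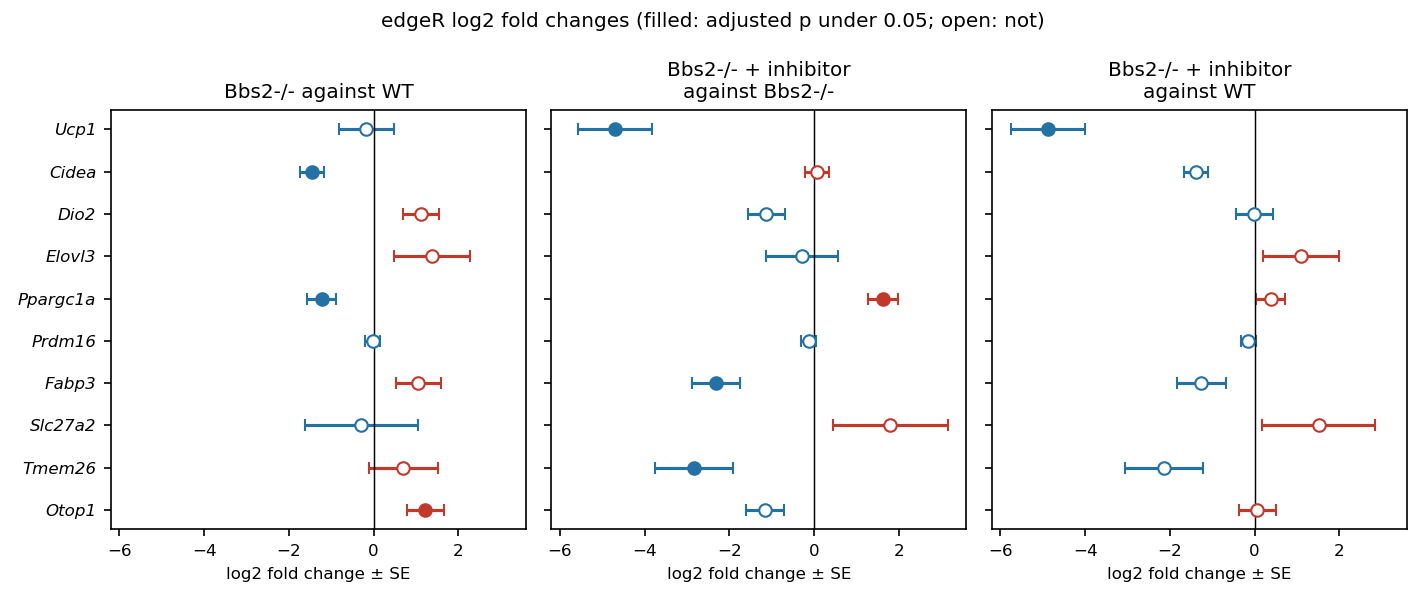
Points give the edgeR log2 fold change of each gene and bars its standard error, in 3 panels for the 3 comparisons, with filled points for an adjusted p under 0.05. Ppargc1a is filled on the low side against WT (-1.23) and on the high side after treatment (1.62), and Ucp1 lies at -4.70 and -4.88 in both comparisons of treated libraries.

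Adipose tissue is a mixture, and in bulk RNA fewer cells of a type and less RNA per cell cannot be told apart. The summed level of the 15 adipocyte markers was 45235.4 to 69960.7 CPM in WT, 29789.6 to 35833.6 in untreated and 49693.6 to 66875.2 in treated libraries. Of these markers 11 fell and none rose between untreated and WT libraries, and 12 rose and none fell between treated and untreated libraries. Of all genes tested, 19.6% were higher and 19.7% lower in the first comparison, and 18.5 and 18.8% in the second. Adipoq, which encodes adiponectin, had a log2 fold change of -2.06 against WT, and Plin1, which encodes the lipid droplet coat protein perilipin 1, of -1.19. The 12 macrophage markers summed to 823.5 to 2778.6 CPM in WT, 6794.6 to 9520.7 in untreated and 753 to 1989.8 in treated libraries. All 12 were called higher in untreated than in WT libraries and lower in treated than in untreated libraries, and none of them was at 0 in every library. Adgre1, the gene of the macrophage antigen F4/80, had log2 fold changes of 2.75 and -3.55, and Cd68 of 2.72 and -3.43. The part of these mixtures in any result on the 10 genes was not tested.

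Stretches upstream of Ucp1, Dio2 and Ppargc1a are shown because cyclic AMP is the signal that drives these genes in brown fat, and because they are 3 of the 4 that hold a cyclic AMP motif. Upstream sequence was found for 8 of the 10 genes (not Cidea or Elovl3) in RefSeq's GRCm38.p6 annotation, and each stretch covers the 250 bases before the RefSeq start of the gene, 5′ to 3′ on the gene's strand. Capitals mark matches to the motifs searched on both strands, and the stretches are chr8:83290098-83290347 on the plus strand for Ucp1, chr12:90739039-90739288 on the minus strand for Dio2 and chr5:51567726-51567975 on the minus strand for Ppargc1a.
Ucp1: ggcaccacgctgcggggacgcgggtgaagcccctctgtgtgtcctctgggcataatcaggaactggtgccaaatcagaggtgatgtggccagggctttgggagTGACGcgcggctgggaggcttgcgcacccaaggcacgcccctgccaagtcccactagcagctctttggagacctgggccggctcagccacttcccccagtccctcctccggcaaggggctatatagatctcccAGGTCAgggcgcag
Dio2: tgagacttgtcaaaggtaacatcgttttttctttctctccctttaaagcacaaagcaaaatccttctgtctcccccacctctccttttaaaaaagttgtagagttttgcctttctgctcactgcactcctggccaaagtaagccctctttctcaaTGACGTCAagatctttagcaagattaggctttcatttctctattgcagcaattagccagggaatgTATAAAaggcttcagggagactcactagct
Ppargc1a: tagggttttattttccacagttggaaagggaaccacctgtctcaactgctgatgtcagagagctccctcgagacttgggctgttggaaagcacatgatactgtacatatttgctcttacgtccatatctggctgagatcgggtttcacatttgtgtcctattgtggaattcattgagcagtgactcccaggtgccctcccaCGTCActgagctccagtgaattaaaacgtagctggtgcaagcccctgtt

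The Ucp1 stretch holds TGACG, the half-site of the cyclic AMP response element, 147 to 143 bases before the start, and AGGTCA, a nuclear receptor half-site, 14 to 9 bases before it. In the Dio2 stretch the full element TGACGTCA lies 95 to 88 bases before the start and contains TGACG on both strands, and the TATA box letters TATAAA lie 30 to 25 bases before it. The Ppargc1a stretch holds TGACG on the opposite strand, printed as CGTCA, 49 to 45 bases before the start. Fabp3 has TGACG 149 to 145 bases before its start, and Slc27a2 has AGGTCA on the opposite strand 220 to 215 bases before its RefSeq start. RefSeq starts can differ from the GENCODE bounds given for the genes below. The stretches of Slc27a2 (chr2:126552774-126553023) and Otop1 (chr5:38277154-38277403) lie inside those bounds. That of Dio2 lies beyond its bound without touching it.

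TGACG was thus found in 4 of the 8 stretches, beside 17.8% of 32851 RefSeq promoters over the same length, and the full TGACGTCA in 1, beside 1.55%. AGGTCA was in 2 of 8, beside 14.0% of all promoters, and TATAAA in 1 of 8, beside 12.4%. The estrogen-related receptor element TCAAGGTCA, which contains AGGTCA, was in none of the 8 (0.387% of all promoters). The DR1 element, a direct repeat of the AGGTCA half-site, was also in none (0.0335%), nor was the EBF element (0.779%). A match describes these letters in this window and shows neither a binding site nor a cause.

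Ppargc1a and Prdm16 regulate transcription. Ppargc1a (ENSMUSG00000029167.13, chromosome 5, 51454250 to 51567726, mm10) encodes PGC-1alpha, a coactivator that raises mitochondrial biogenesis and Ucp1 transcription. It stood at 4.74, 3.04, 2.45 and 3.72 CPM in WT 1 to 4, at 1.75, 1.98, 1.45 and 0.755 in untreated 1 to 4, and at 3.67, 3.10, 6.93 and 4.51 in treated 1 to 4. All 4 untreated libraries were below every WT and every treated library, and WT and treated libraries overlapped.

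The log2 fold change of Ppargc1a was -1.23 between untreated and WT libraries (SE 0.35, edgeR adjusted p = 0.0147) and 1.62 between treated and untreated libraries (SE 0.35, edgeR adjusted p = 0.00372). Its mean was 3.49 ± 0.98 CPM in WT, 1.48 ± 0.531 in untreated and 4.56 ± 1.69 in treated libraries (SD, n = 4). Treated and WT libraries differed by 0.38 (SE 0.34, edgeR adjusted p = 0.744). Of 26 alternatives, 24 kept the call between untreated and WT libraries and 25 kept that between treated and untreated libraries. Without the 4 libraries with ciliated epithelium RNA (WT 1, WT 4, treated 1 and treated 3), the value against WT was -0.90 (edgeR adjusted p = 0.1). The 8 markers of ciliated epithelium summed to 11.3, 33.5, 26.6 and 21.1 CPM in those 4 libraries and to at most 6.64 in the other 8.

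Prdm16 (ENSMUSG00000039410.16, chromosome 4, 154316125 to 154636873) encodes a zinc finger protein that directs cells toward the brown and beige fate. Its levels were 8.28, 10.3, 6.17 and 10.5 CPM in WT, 9.07, 8.69, 9.33 and 7.65 in untreated and 7.24, 8.66, 9.16 and 6.77 in treated libraries. The 3 groups overlapped fully, and with 93 to 187 counts per library this was the steadiest of the 10 genes. The log2 fold changes were -0.02 (SE 0.18) between untreated and WT, -0.13 (SE 0.18) between treated and untreated and -0.15 (SE 0.18) between treated and WT libraries, with edgeR adjusted p = 0.929, 0.61 and 0.823. With library size alone as the scaling, the first of these turned to 0.16.

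Dio2 and Ucp1 stand for the hormone step and the heat step. Dio2 (ENSMUSG00000007682.6, chromosome 12, 90724552 to 90738438) encodes the type 2 deiodinase, which makes active thyroid hormone inside the cell. It had 34, 9, 27 and 28 counts in WT, 101, 52, 53 and 52 in untreated and 25, 23, 48 and 15 in treated libraries. In CPM every untreated library (2.45 to 5.21) was above every WT library (0.608 to 1.85), while treated 3 (2.54) reached into the untreated range. The log2 fold change was 1.12 between untreated and WT (SE 0.43, edgeR adjusted p = 0.0572) and -1.13 between treated and untreated libraries (SE 0.43, edgeR adjusted p = 0.0573), both short of the threshold.

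Dio2 passed the threshold against WT under 6 of 26 alternatives and in treated against untreated libraries under 9 of 26. Without treated 3 the second value was -1.53 (edgeR adjusted p = 0.0206), and without WT 2 it was -1.13 (edgeR adjusted p = 0.0375). The first value of 1.12 passed without treated 3 (edgeR adjusted p = 0.0412) and without treated 4 (edgeR adjusted p = 0.0479). Treated and WT libraries differed by -0.01 (SE 0.44, edgeR adjusted p = 0.998).

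Ucp1 (ENSMUSG00000031710.4, chromosome 8, 83290352 to 83298452) encodes uncoupling protein 1, the proton carrier that defines thermogenic fat. Its counts were 47, 24, 16 and 56 in WT 1 to 4, 76, 8, 51 and 14 in untreated 1 to 4, and 2, 0, 2 and 1 in treated 1 to 4. Every treated library lay below every library of the other groups, and the untreated libraries spanned the whole WT range. The count of 0 in treated 2 allows up to 3 counts, or 0.163 CPM, and all 4 treated libraries were at or under that many counts.

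In CPM Ucp1 was at 2.12 ± 0.975 in WT, 1.88 ± 1.66 in untreated and 0.0654 ± 0.0501 in treated libraries (SD, n = 4). Per count of the whole library, the summed counts of 149 in untreated and 5 in treated libraries gave a ratio of 30.5 (95% exact interval 12.8 to 95.3), and the 143 counts in WT gave 31.9 (13.3 to 99.6). These intervals cover counting error only. The fitted log2 fold change depends on the prior count at such low values and was -4.70 between treated and untreated libraries (SE 0.88, edgeR adjusted p = 0.00162). It was -4.88 between treated and WT (SE 0.88, edgeR adjusted p = 0.0485) and -0.18 between untreated and WT libraries (SE 0.65, edgeR adjusted p = 0.849).

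The lower level of Ucp1 in treated than in untreated libraries passed in all 25 alternatives that could test it, with values of -5.80 to -4.05 in fits of counts and -0.95 on the log2 FPKM scale, which understates the change of low genes. In the main fit Ucp1 passed the filter only because WT libraries were counted, and the fit of just these 2 groups filtered it out. The call against WT passed in 7 of 26 alternatives. It was kept without untreated 1 and without untreated 2. It was lost without any other library, at -4.78, -4.99, -5.10 and -4.60 without WT 1 to 4, -4.86 without untreated 3 or 4, and -5.14, -4.51, -5.17 and -4.79 without treated 1 to 4, with edgeR adjusted p-values of 0.0611 to 0.146. The direction was the same in all of these. The low counts in WT and untreated libraries, 8 to 76 of over 16317865, place Ucp1 near the limit of what this depth measures.

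Cidea, Elovl3, Fabp3 and Slc27a2 act on lipids. Cidea (ENSMUSG00000024526.8) encodes a lipid droplet protein found where droplets are small and many. It stood at 12.4, 13.8, 22.3 and 20.7 CPM in WT, 9.90, 4.40, 5.49 and 5.48 in untreated and 8.85, 5.88, 6.72 and 5.09 in treated libraries. All 8 libraries labelled Bbs2-/- were below all 4 WT libraries, and untreated and treated libraries overlapped.

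Cidea fell by 1.45 on the log2 scale between WT and untreated libraries (SE 0.28, edgeR adjusted p = 0.00195), from 17.3 ± 4.94 to 6.31 ± 2.44 CPM (SD, n = 4). Treated libraries, at 6.63 ± 1.62 CPM, differed from untreated ones by 0.07 (SE 0.28, edgeR adjusted p = 0.863), and this small value turned to -0.04 with library size alone as the scaling. Against WT the treated libraries were at -1.38 (SE 0.28, edgeR adjusted p = 0.0817), which passed only without untreated 1 (-1.38, edgeR adjusted p = 0.049) and with DESeq2 (-1.38, adjusted p = 0.00069) among the 26 alternatives. The call between untreated and WT libraries was kept in 25 of 26 alternatives and was lost when a log2 fold change above 1 was asked for.

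Fabp3 (ENSMUSG00000028773.8, chromosome 4, 130308595 to 130315463) encodes a cytosolic fatty acid binding protein of heart, muscle and brown fat. It had 24, 2, 5 and 15 counts in WT, 23, 34, 30 and 26 in untreated and 7, 4, 7 and 3 in treated libraries. Every treated library was below every untreated one in CPM, and WT 1 reached the untreated range. Fabp3 fell by 2.31 on the log2 scale between untreated and treated libraries (SE 0.57, edgeR adjusted p = 0.00769), from 1.4 ± 0.233 to 0.277 ± 0.106 CPM (SD, n = 4). As Fabp3 passed the filter through its untreated libraries, this call describes the values and supports nothing more.

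Against WT, untreated libraries had a Fabp3 log2 fold change of 1.05 (SE 0.53, edgeR adjusted p = 0.135), and without WT 1 it was 1.61 (edgeR adjusted p = 0.032). In WT 1 the 13 skeletal muscle markers summed to 85.8 CPM, the highest of the 12 libraries (range 14.1 to 85.8), and Ckm, a muscle creatine kinase gene, had 239 counts there and at most 3 elsewhere. Myh4, a fast muscle myosin gene, had at most 1.04 estimated counts in any library. Acta1, a muscle actin gene, gave 1075 of the counts in WT 1. Single markers went different ways: of 8 tested, Pvalb (4.35), Tnni2 (2.15) and Myh2 (1.73) were called higher and Acta1 (-1.87) and Tnnc2 (-5.41) lower in untreated than in WT libraries, and Pvalb (-3.87) and Tnni2 (-1.93) lower with treatment. The summed macrophage markers were also highest in WT 1 among the WT libraries. The part of muscle or macrophage RNA in the Fabp3 levels was not tested. Treated and WT libraries were at -1.26 (SE 0.58, edgeR adjusted p = 0.47).

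Elovl3 (ENSMUSG00000038754.4, chromosome 19, 46131897 to 46135694) encodes an elongase of very long chain fatty acids that brown fat makes in the cold. Its counts were 6, 3, 11 and 15 in WT, 42, 19, 19 and 32 in untreated and 74, 5, 3 and 6 in treated libraries. Treated 1 was the highest of all libraries, at 3.83 CPM, while the other 3 treated libraries lay at 0.159 to 0.315. No comparison was called with all libraries: 1.37 between untreated and WT (SE 0.90, edgeR adjusted p = 0.25), -0.28 between treated and untreated (SE 0.85, edgeR adjusted p = 0.828) and 1.09 between treated and WT (SE 0.90, edgeR adjusted p = 0.722). Leaving out treated 1 changed each call or sign: the values were then 1.37 (edgeR adjusted p = 0.0474), -2.43 (edgeR adjusted p = 0.00853) and -1.06, which did not pass.

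Slc27a2 (ENSMUSG00000027359.16, chromosome 2, 126552407 to 126588243) encodes a fatty acid transport protein and very long chain acyl-CoA synthetase that is abundant in liver and kidney. Its counts were 31, 11, 56 and 81 in WT, 121, 15, 26 and 13 in untreated and 548, 1, 33 and 14 in treated libraries. The spread within the treated group, 0.0544 to 28.4 CPM, covered that of all other libraries. No comparison was called: -0.29 between untreated and WT (SE 1.34, edgeR adjusted p = 0.883), 1.80 between treated and untreated (SE 1.35, edgeR adjusted p = 0.322) and 1.51 between treated and WT (SE 1.34, edgeR adjusted p = 0.748). Without treated 1 the second and the third turned to -1.37 and -1.66, neither of which passed.

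RNA of liver genes was highest in the same 2 libraries as Slc27a2 and Elovl3. The 6 liver marker genes of a list of kidney and liver markers (Alb, Apoa1, Apoa2, Ttr, Fgb and Serpina1a) summed to 2480.6 CPM in treated 1 and to 398.8 in untreated 1, and the other 10 libraries lay between 32.5 and 268.2. Albumin (Alb) alone had 29002 counts in treated 1, 4933 in the next library and 346 in the lowest. The 6 kidney genes summed to at most 1.36 CPM in any library, and 3 of them (Kap, Slc34a1 and Slc12a1) had at most 2 counts in each.

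Slc27a2 and the liver sum both ranked first in treated 1, second in untreated 1 and last in treated 2. Their ranks differed most in treated 3, WT 1 and WT 2, at 5, 6 and 8 for Slc27a2 and 10, 11 and 5 for the liver sum. Elovl3 also ranked first and second in treated 1 and untreated 1. Below these 2 libraries the order of Elovl3 differed from that of the liver sum. Elovl3 ranked 3, 4 and 5 in untreated 4, 3 and 2, where the liver sum ranked 9, 6 and 7. WT 3, WT 4 and WT 2, at 3, 4 and 5 by the liver sum, ranked 7, 6 and 11 for Elovl3. The genes whose pattern over the 12 libraries was nearest to Slc27a2, by the root mean square difference of centred log2 CPM, were Proc (0.36), C8a (0.44) and Mug1 (0.47), beside a spread of 1.82 for Slc27a2 itself. Proc encodes protein C and C8a a complement component, both made by the liver. Nearest to Elovl3 (spread 1.16) were Cyp7b1 (0.45), Fetub (0.46) and Creb3l3 (0.46), of which at least Fetub and Creb3l3 are known from liver. The part of liver RNA in the levels of Slc27a2 and Elovl3 was not tested, and the split of the list into liver and kidney genes was made after its values were seen.

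**Figure D3:**
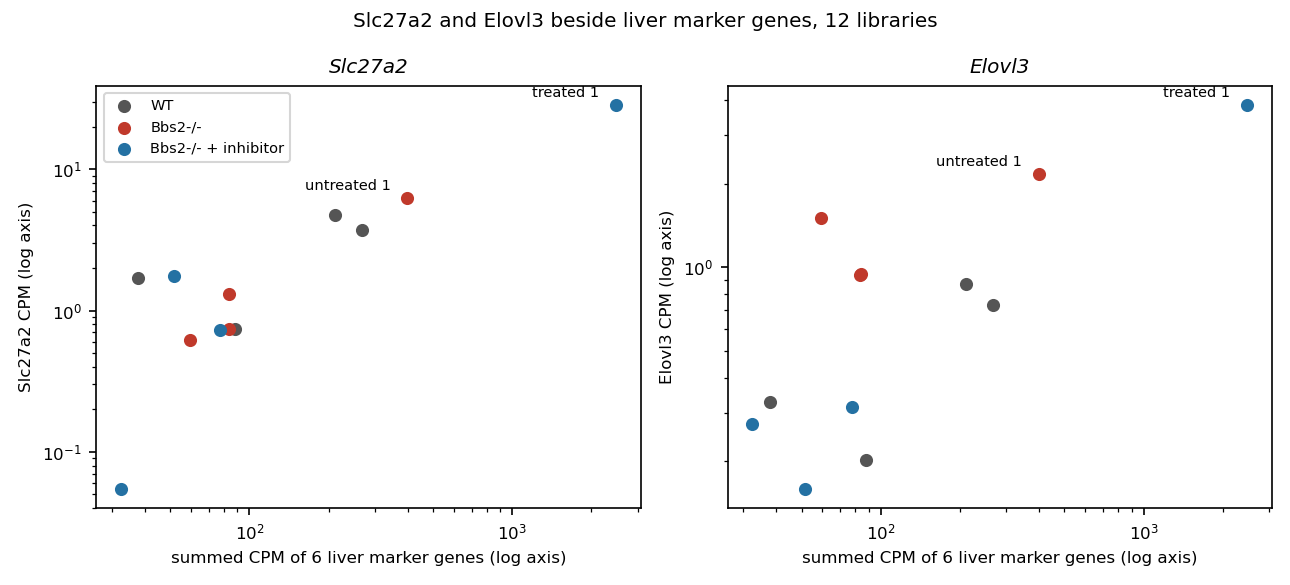
The level of Slc27a2 (left) and Elovl3 (right) in CPM is plotted against the summed CPM of 6 liver marker genes for the 12 libraries, coloured by group, with all axes on a log scale. Treated 1 (2480.6 CPM of liver genes) and untreated 1 (398.8) lie farthest right and highest in both panels.

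Tmem26 and Otop1 encode membrane proteins. Tmem26 (ENSMUSG00000060044.8, chromosome 10, 68723646 to 68782650) is used as a surface marker of beige adipocytes. It had 61, 5, 1 and 4 counts in WT, 35, 34, 26 and 37 in untreated and 3, 2, 7 and 5 in treated libraries. Every treated library was below every untreated library, and WT held both the highest and the lowest value of all 12. Tmem26 fell by 2.83 on the log2 scale between untreated and treated libraries (SE 0.92, edgeR adjusted p = 0.0304), from 1.63 ± 0.229 to 0.224 ± 0.117 CPM (SD, n = 4). Tmem26 too passed the filter through its untreated libraries, so this call is descriptive.

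That call was kept in 16 of 25 alternatives and lost on the log2 FPKM scale (-0.35, adjusted p = 0.0836 by limma). It was also lost without untreated 1 (-2.78), 2 (-2.84) or 4 (-2.82) and without treated 1 (-2.67), 2 (-2.61) or 4 (-2.91), with edgeR adjusted p-values of 0.0544 to 0.0741. Untreated and WT libraries were at 0.70 (SE 0.82, edgeR adjusted p = 0.534), and without WT 1 at 2.90 (edgeR adjusted p = 0.00131). WT 1 also held 1083.2 CPM of 8 epididymis markers, of which the other libraries had at most 6.1, led by Crisp1 with 19876 counts there and at most 5 elsewhere. The 12 macrophage markers summed to 2778.6 CPM in WT 1 and to 823.5 to 1378.1 in the other WT libraries, beside at least 6794.6 in untreated and at most 1989.8 in treated libraries. The part of epididymis or macrophage RNA in the Tmem26 levels was not tested. Treated and WT libraries were at -2.13 (SE 0.92, edgeR adjusted p = 0.437).

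Otop1 (ENSMUSG00000051596.13, chromosome 5, 38275972 to 38304217) encodes otopetrin 1, a proton channel. It stood at 6.70, 6.76, 9.89 and 12.8 CPM in WT, 23.5, 23.4, 20.8 and 16.6 in untreated and 15.1, 12.7, 7.57 and 2.26 in treated libraries. All 4 untreated libraries were above every other library, with treated 1 the nearest. Otop1 was higher in untreated than in WT libraries by 1.22 on the log2 scale (SE 0.44, edgeR adjusted p = 0.0451), at 21.1 ± 3.22 against 9.03 ± 2.91 CPM (SD, n = 4).

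The Otop1 call against WT was kept in 10 of 26 alternatives. It was lost without WT 1 (1.1), 2 (1.11) or 3 (1.27), without any of untreated 1 to 4 (1.17, 1.20, 1.26 and 1.35) and without treated 3 (1.22), with edgeR adjusted p-values of 0.05 to 0.108. Treated libraries were at -1.16 against untreated ones (SE 0.44, edgeR adjusted p = 0.0556), and this passed without treated 1 (-1.47, edgeR adjusted p = 0.0287) and without treated 4 (-0.84, edgeR adjusted p = 0.0399). Against WT they were at 0.06 (SE 0.44, edgeR adjusted p = 0.985). Nearest to Otop1 over the 12 libraries (spread 0.92) were Ptger1 (0.36), Trem2 (0.40), a receptor gene of macrophages, and Psrc1 (0.42).

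By the same measure the genes nearest to Ucp1 (spread 1.80) were Gnal (1.06), Sbk2 (1.19) and Ryr2 (1.22), so no tested gene came closer than a root mean square difference of 1.06. Nearest to Ppargc1a (spread 0.79) were 4930570G19Rik (0.33), Abcd2 (0.34), a peroxisomal transporter gene for very long chain fatty acids, and Bnc2 (0.34). Abcd2 stood at 482.2 to 572.3 CPM in WT, 156.9 to 267.1 in untreated and 415.8 to 709.5 in treated libraries. Nearest to Cidea (spread 0.76) were Pgbd1 (0.33), Tmem45b (0.37) and Jade3 (0.38), and to Dio2 (spread 0.75) Gm19439 (0.29), BC030867 (0.35) and Sapcd2 (0.35). Fabp3 (spread 1.03) and Tmem26 (spread 1.4) shared Tpbg among their nearest genes, at 0.36 and 0.54, beside Ttk (0.34) and Col14a1 (0.40) for Fabp3 and Trpm1 (0.53) and Ankrd33b (0.53) for Tmem26. Prdm16 (spread 0.22) had Gpatch11, Card6 and Ccng2 nearest, at 0.15 each, which for so flat a gene says little.

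Several counts carry a limit of annotation. Of the 10 genes 7 overlap an annotated gene on the opposite strand, all but Ucp1, Tmem26 and Otop1, and the strand setting of the counting is not given in the sources used here. Their reads and those of the overlapping gene cannot be told apart if strand was not used. Ppargc1a also overlaps the annotated genes Gm42614, Gm42615 and Gm43605 on its own strand, which a strand setting would not separate.

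The wider thermogenic programme was described with 85 further genes in 5 lists, of which 73 were tested. Between untreated and WT libraries 21 were higher and 19 lower, beside 19.6 and 19.7% of all genes, and the median log2 fold change was -0.15. Between treated and untreated libraries 16 were higher and 17 lower, beside 18.5 and 18.8% of all genes, and the median was 0.07. Between treated and WT libraries 1 was lower: Pdk4, which encodes a kinase that shuts off pyruvate oxidation (-1.71, edgeR adjusted p = 0.0284).

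Of 19 tested genes for hormones, receptors and signalling upstream of thermogenesis, 10 fell and 3 rose between WT and untreated libraries, and 10 rose and 4 fell between untreated and treated libraries. Over all genes 39.2 and 37.2% were called in either direction in these 2 comparisons. Adrb3, the beta3-adrenergic receptor gene, was at 869.1 ± 317.5 CPM in WT, 54.7 ± 23.6 in untreated and 612.9 ± 303.1 in treated libraries (SD, n = 4). Its log2 fold changes were -3.99 (SE 0.47, edgeR adjusted p = 0.000165) and 3.48 (SE 0.46, edgeR adjusted p = 0.000274). Klb, the gene of the FGF21 co-receptor beta-klotho, was at -1.74 and 1.80, and Vegfa, a growth factor gene of blood vessels, at -1.53 and 1.55. Prkar2b, a regulatory subunit of the cyclic AMP dependent kinase, was at -0.57 and 0.49. These 4 genes fell between WT and untreated libraries and rose between untreated and treated libraries.

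Of 18 tested transcription regulators 5 rose and 2 fell against WT, and 3 rose and 1 fell with treatment. The shares over all genes, 39.2 and 37.2%, were no lower than those of this list. Nrip1, a corepressor of mitochondrial genes, was at -1.57 and 1.29 and passed both tests, as did Ebf2, a transcription factor gene of brown fat precursors, at -0.74 and 0.65. The second call of Ebf2 was lost without untreated 2 (0.62), untreated 4 (0.49), treated 3 (0.54) or treated 4 (0.53). Cebpb, a transcription factor gene of early adipogenesis, rose by 1.16 against WT, and its value with treatment, -0.42, passed only without untreated 3 (-0.58) or treated 2 (-0.61) among the fits that leave out 1 library. Ctbp2, a corepressor gene, rose by 0.37 and was at -0.21 with treatment, which did not pass.

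Of 22 tested metabolic effectors 7 rose and 5 fell against WT, and 2 rose and 7 fell with treatment. Beside these, 39.2 and 37.2% of all genes were called in either direction. Ffar4, a receptor gene for long chain fatty acids, was at -2.0 and 2.0. Slc6a8, the creatine transporter gene, was at 1.1 and -1.13, and Acsl5, an acyl-CoA synthetase gene, at 0.52 and -0.54, with all 6 values past the threshold. Pdk4 fell by 1.28 against WT and was at -0.43 with treatment, which did not pass.

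Of 8 tested brown fat markers 3 rose and 1 fell against WT, and 1 rose and 3 fell with treatment. For these and the beige markers the shares over all genes were again 39.2 and 37.2% in either direction. Epsti1, an interferon responsive gene, was at 2.04 and -2.27, and Mpzl2, an adhesion gene, at -3.11 and 3.31. Slc29a1, a nucleoside transporter gene, was at 0.76 and -0.83, and Slc36a2, an amino acid transporter gene, at 0.58 and -0.56. The first call of Slc36a2 was lost without untreated 2 (0.57), and the second without untreated 2 to 4 (-0.54, -0.58 and -0.57) or treated 1, 3 or 4 (-0.45, -0.58 and -0.57). Of 6 tested beige markers 3 rose and 1 fell against WT, and 2 fell with treatment. Cd40, a receptor gene of immune cells, was at 2.0 and -1.62 and passed both tests.

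Of the other named beige markers, Klhl13 fell by 0.61 against WT and was at 0.33 with treatment, which passed only without untreated 3 (0.46) among the fits that leave out 1 library. Sp100 rose by 0.39 and was at -0.22 with treatment, which did not pass. Slc7a8, an amino acid transporter gene, was at 0.46 and -0.66, and its first call was lost without 8 of the 12 libraries in turn (0.37 to 0.52), all but WT 2, untreated 2, treated 2 and treated 4. The summed level of the 12 brown markers was 182.1 to 280.3 CPM in WT, 295.9 to 341.3 in untreated and 207.8 to 272.1 in treated libraries. That of the 9 beige markers was 141.6 to 181.4, 156.4 to 177.9 and 117 to 161.8 CPM. Slc36a2 was the largest term of the brown sum, with means of 129.3 CPM in WT, 193.4 in untreated and 131 in treated libraries. Of the 8 brown markers tested, 5 had log2 fold changes below 0 against WT, and the median was -0.38.

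White fat markers went the way of the adipocyte markers. Of 11 tested, 9 fell and none rose against WT, with a median log2 fold change of -1.31, and 9 rose and none fell with treatment, with a median of 1.59. Among all genes tested 19.7% fell against WT and 18.5% rose with treatment. Retn, which encodes resistin, was at 1136.6 ± 236 CPM in WT, 83.9 ± 15.8 in untreated and 1088.3 ± 444 in treated libraries (SD, n = 4; log2 fold changes -3.76 and 3.70). Agt, the angiotensinogen gene, was at -3.14 and 3.15, Rbp4, a retinol carrier gene, at -2.51 and 2.34, and Psat1, a serine synthesis gene, at -1.29 and 0.97.

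**Figure D4:**
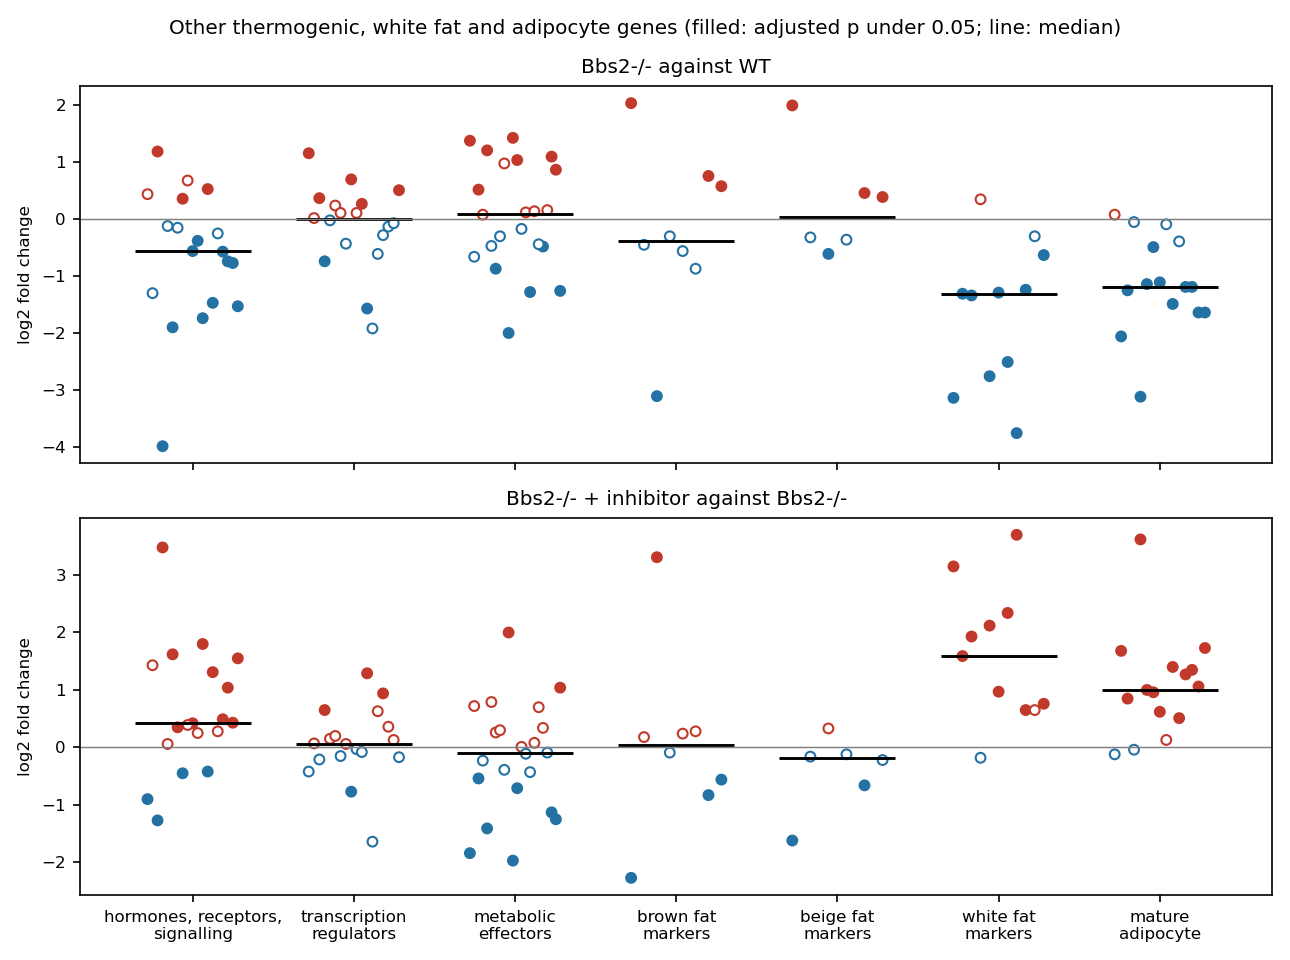
Each point is the log2 fold change of 1 tested gene in 7 lists (horizontal axis), for untreated against WT libraries above and treated against untreated libraries below, filled where the adjusted p is under 0.05, with a line at the median of the list. The white fat medians of -1.31 and 1.59 and the adipocyte medians of -1.19 and 1.0 lie farther from 0 than those of the brown (-0.38 and 0.04) and beige (0.04 and -0.19) markers.

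Set beside these lists, Cidea and Ppargc1a were the members that fell against WT, where most white fat and adipocyte markers fell, and of them only Ppargc1a rose with treatment. Ucp1, Fabp3 and Tmem26 fell with treatment, where adipocyte markers rose and macrophage markers fell. Against WT, where macrophage markers rose, Ucp1, Fabp3 and Tmem26 were at -0.18, 1.05 and 0.70 and were not called. Otop1 was the member called higher there. No test was made of a difference between these genes and the lists.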

How the data were processed

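RNA was extracted with TRIzol and RNeasy columns and libraries were made with a stranded messenger RNA kit, per the labels' protocols. The authors deposited unscaled estimated counts for each gene and library, and a second table of log2 FPKM whose upper quartile is 3.96 in all 12 libraries. The genome build named is mm10, per the submitters' processing notes. Aligner, counter, strand setting and annotation release were each not given in the sources used here. Symbols and coordinates came from the GENCODE mouse annotation on that build.

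After rounding to whole numbers, estimated counts went into edgeR 4.0.16 under R 4.3.3 (TMM scaling, filterByExpr by group with a minimum count of 10, robust quasi-likelihood test, two-sided). The 12 libraries shared 1 fit by group without covariates, and Benjamini-Hochberg adjustment ran over the 15968 genes tested. A standard error (SE) is the log2 fold change divided by the square root of its F statistic, without its sign. Within groups, pairs of libraries gave a chi-square per degree of freedom between 18.3 and 88.2, so none was counted as a repeat. The procedure was tested on simulated data with 66 or 67 genes changed at each fold in each comparison. It called 14.9 to 26.9% of 1.5-fold, 50.8 to 58.2% of 2-fold and 76.6 to 86.4% of 4-fold changes. These were random genes among 15736 to 15749, a far smaller changed share than the 39.2 and 37.2% called in the first 2 real comparisons. The adjusted p was therefore stricter in the simulation, and its rates do not give the power for those comparisons or for low genes. A gene that was not called is still not shown to be unchanged.

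The members and lists were chosen with earlier results of these data known. Named besides the 10 members are up to 4 tested genes with the smallest p against WT in each of the 5 thermogenic lists and the white fat list, the first 2 adipocyte and macrophage markers, and for each member the 3 genes with the nearest pattern. Lep, Zic1, Lhx8, Sgpp2, Cyp2b10, Tbx1, Tnfrsf9, Cited1, Ckm, Myh4, Acta1, Pvalb, Tnni2, Myh2, Tnnc2, Alb and Crisp1 were named after their values were seen. Of 15 gene lists, those for skin glands and nerves gave summed levels of 20.6 to 56.6 and 44.2 to 69.3 CPM over all libraries. The alternatives, 26 in number, were DESeq2 1.42.0, edgeR with DESeq2 size factors, scaling by library size alone, limma-voom and limma-trend on log2 FPKM (limma 3.58.1), other filters, a block for the replicate number, a test against a log2 fold change of 1, only the groups compared, and fits without 1 or more libraries.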

Additional observations from a re-analysis of the deposited data

Results flagged for a closer look

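Each value below is 1 library that stood apart from the other 3 of its group by Dixon's criterion at the 95% level. Of 66 groups checked, 30 were groups of the 10 members, and chance alone flags about 1 group in 20. Dio2 was at 5.21 CPM in untreated 1, beside 2.45 to 2.65 CPM in the other untreated libraries. Elovl3 was at 3.83 CPM in treated 1, beside 0.159 to 0.315 CPM. Slc27a2 was at 6.24 CPM in untreated 1, beside 0.614 to 1.30 CPM, and at 28.4 CPM in treated 1, beside 0.0544 to 1.75 CPM. Tmem26 was at 3.32 CPM in WT 1, beside 0.0663 to 0.338 CPM. The summed level of 12 brown fat markers was 272.1 CPM in treated 2, beside 207.8 to 215.9 CPM. The 6 liver markers summed to 398.8 CPM in untreated 1, beside 59.2 to 83.9 CPM, and to 2480.6 CPM in treated 1, beside 32.5 to 77.5 CPM. The 8 epididymis markers summed to 1083.2 CPM in WT 1, beside at most 6.1 CPM.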

How the results depend on the processing

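Counts of called members between untreated and WT libraries were 2 to 4 without each library in turn, 5 with limma-voom and 0 when a log2 fold change above 1 was asked for. Between treated and untreated libraries they were 3 to 5, and 1 with that minimum. Between treated and WT libraries they were 0 to 2, 2 with DESeq2, and 0 with limma-voom, the minimum fold change, log2 FPKM, only the groups compared, without WT 2 and WT 3, without WT 1, WT 4, treated 1 and treated 3, and without treated 1 together with untreated 1 or with WT 1. The last 2 fits were chosen after seeing the data. The other thermogenic genes called were 34 to 46, 27 to 41 and 0 to 1 without each library, 4, 5 and 0 with the minimum fold change, and in the third comparison 2 with DESeq2 and 0 with log2 FPKM, only the groups compared and each fit without 2 or more libraries. The other counts stayed within 1.5 times of those reported.

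Signs turned for small or noisy values, none of which was called with all libraries. With library size alone, which moved the median of all genes between untreated and WT libraries from -0.019 to 0.164 and the share of called genes that were higher from 49.9 to 69.0%, Prdm16 was 0.16 against WT, Cidea -0.04 with treatment and Dio2 0.04 between treated and WT. That scaling moved the median between treated and untreated libraries from 0.032 to -0.097 and the share from 49.6 to 35.5%, and between treated and WT libraries the share from 68.3 to 79.6%. Without a filter Prdm16 was 0.00 against WT and Dio2 0.02 between treated and WT, and Dio2 was 0.00 there with only the groups compared. With limma-voom Slc27a2 was -0.02 with treatment and -0.71 between treated and WT, and Otop1 -0.20 there, beside -0.09 with log2 FPKM. Without WT 2 and WT 3, Tmem26 was -0.12 against WT and Otop1 -0.02 between treated and WT. Without WT 1, WT 4, treated 1 and treated 3, Ucp1 was 0.47 and Prdm16 0.06 against WT, Cidea -0.19 and Slc27a2 -2.44 with treatment, and Elovl3 -0.65, Slc27a2 -2.47 and Otop1 -0.15 between treated and WT. Without treated 1 and untreated 1, Slc27a2 was -0.08 with treatment, and Dio2 0.06, Elovl3 -1.07, Slc27a2 -1.67 and Otop1 -0.25 between treated and WT. Without treated 1 and WT 1, Cidea was -0.11 and Slc27a2 -1.40 with treatment, and Dio2 0.19, Elovl3 -1.25, Slc27a2 -1.84, Tmem26 0.23 and Otop1 -0.37 between treated and WT. Leaving out 1 library at a time gave ranges across 0 against WT for Prdm16 (-0.16 to 0.07), Slc27a2 (-1.61 to 0.11) and Ucp1 (-0.82 to 0.19). With treatment they crossed 0 for Cidea (-0.09 to 0.37), Elovl3 (-2.43 to 0.08) and Slc27a2 (-1.37 to 3.12). Between treated and WT they did for Dio2 (-0.41 to 0.20), Elovl3 (-1.06 to 1.45), Otop1 (-0.24 to 0.38), Slc27a2 (-1.66 to 1.92) and Tmem26 (-2.51 to 0.08). The cause was not tested. Over all named genes and alternatives 1999 values kept sign and side of the threshold, 117 lost a call, 43 gained one and 68 changed sign. A few fits gave no value: Ucp1 was filtered out with only treated and untreated libraries, as were Elovl3, Fabp3 and Tmem26 with only treated and WT ones, and Tmem26 and Adgre1 had no adjusted p with DESeq2.

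The labels give no meaning to the replicate numbers, and not every same-numbered pair had a correlation above 0.1, so they were not taken as pairs. Same-numbered libraries deviated from their group means with correlations of -0.149 to 0.308, and for treated and untreated libraries 1 to 4 these were 0.3081, 0.1162, 0.1444 and 0.0999. The best match had the same number in 8 of 24 searches of a library against another group, and in 6 of the 8 between treated and untreated libraries, a hint from the data and not the design. With the replicate number as a block 3, 5 and 0 members and 0 other thermogenic genes between treated and WT libraries were called, with Dio2 gained (1.15, edgeR adjusted p = 0.0462) and Otop1 lost (1.14, adjusted p = 0.0955) against WT, Dio2 gained with treatment (-1.15, adjusted p = 0.0486) and Ucp1 lost between treated and WT (-5.13, adjusted p = 0.0665). Slc27a2 was then -0.58 and Otop1 -0.10 between treated and WT libraries.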
